A study of Mus musculus with 8 samples.

Results

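The cytosolic ribosomal protein genes encode the proteins of the 60S and 40S ribosomal subunits. They were taken here as the kept probes whose gene symbol, in the platform's probe table, reads Rpl or Rps followed by a number and at most 1 of the letters a, x or l, or Rplp0 to Rplp2, with 1 probe per gene, that of highest mean signal. The probe table held 59 such genes (37 of the large and 22 of the small subunit) through 75 probes, and 53 of them (32 large, 21 small) had a probe detected at p under 0.05 on at least 2 of 8 arrays, of 10703 genes with a kept probe. Of the 53, 52 were detected on all 8 arrays and Rpl3l on 5. The other 6 were Rpl14, detected on 1 array, and Rpl17, Rpl39l, Rpl6, Rplp2 and Rps23, detected on 0. Their raw intensities of 74.9 to 120.1 were those of background, and no level is given for them.

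RNA came from hypothalamic blocks of male mice aged 12 to 15 weeks, with the strain labelled only as mixed and no genotype given. The saline controls were W4 and W5 (n = 2), streptozotocin-treated diabetic mice were W1, W2 and W3 (STZ, n = 3), and diabetic mice given streptozotocin and a continuous infusion of leptin into the brain were W6, W7 and W8 (STZ with leptin, n = 3). Streptozotocin, which kills the insulin-producing beta cells, was injected repeatedly into the peritoneum, so that all 6 diabetic samples carry it. Doses and durations, a vehicle infusion and whether an array held 1 animal or a pool are not given in the sources used here, so a p-value here reflects the spread among these arrays and no more. W3 is taken as STZ from its title, but its description number fits the gap in the saline numbers (2 and 3) as well. Its microglial markers lay a median of 2.58 log2 units above saline, between W1 (2.04) and W2 (2.80). The hypothalamic peptides Hcrt, Pmch, Avp, Oxt and Trh were detected on all 8 arrays.

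A ribosome joins a small subunit, which reads the messenger RNA, to a large subunit, which makes the peptide bonds. Its protein genes are scattered over the genome and expressed in every cell, and their messenger RNAs are long-lived and abundant. Most of these messages begin with a C followed by a run of C and T, the terminal oligopyrimidine tract, through which insulin and nutrients acting on the kinase mTOR set how much of the message is translated. An array measures the amount of message and does not see how much of it is translated. In bulk tissue, fewer cells of a type and less RNA per cell cannot be told apart.

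The 5′ ends of the genes were read from RefSeq windows of assembly GRCm38.p6, which cover 250 bases before and 50 bases after each annotated start. Of the 53 genes, 45 had a window (56 windows), and the table held 32851 windows of 27025 genes. Where a gene had several starts, the one with the longest run of C and T within 50 bases of it was used. The sequences below run from 40 bases before the start through the first 30 transcribed bases, and capitals mark the longest run of C and T where it has at least 8 bases. A marked run can lie before, across or after the annotated start. Those of Rps27l (9 bases from -22) and Rpl4 (14 bases from -18) end before it. Rps27l, Rpl34, Rps26 and Rps27 are shown because they differed strongly between the arrays, Rps6, Rpl4 and Rpl27a because they differed less, and Rpl3l because it was the gene that passed a test.
Rps27l (chr9:66946046-66946115, plus strand): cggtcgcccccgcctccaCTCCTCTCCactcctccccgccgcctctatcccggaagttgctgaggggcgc
Rpl34 (chr3:130730308-130730377, minus strand): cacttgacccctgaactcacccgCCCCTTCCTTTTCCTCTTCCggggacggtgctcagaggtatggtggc
Rps26 (chr10:128626477-128626546, minus strand): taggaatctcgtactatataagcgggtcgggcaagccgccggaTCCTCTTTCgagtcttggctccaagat
Rps27 (chr3:90213619-90213688, minus strand): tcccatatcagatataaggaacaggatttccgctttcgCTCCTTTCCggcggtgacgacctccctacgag
Rps6 (chr4:86857338-86857407, minus strand): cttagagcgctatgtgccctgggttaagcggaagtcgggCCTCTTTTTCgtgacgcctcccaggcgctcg
Rpl4 (chr9:64173347-64173416, plus strand): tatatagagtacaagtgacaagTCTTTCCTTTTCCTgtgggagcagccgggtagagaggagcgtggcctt
Rpl27a (chr7:109519155-109519224, plus strand): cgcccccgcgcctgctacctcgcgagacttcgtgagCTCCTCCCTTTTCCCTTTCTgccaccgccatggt
Rpl3l (chr17:24727786-24727855, plus strand): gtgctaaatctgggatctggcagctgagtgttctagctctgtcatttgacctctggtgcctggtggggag
The run of C and T stands in the sequences of genes that varied strongly and of genes that varied little, and the printed stretch of Rpl3l has none. Of 45 genes, 19 have no run of that length in this stretch, and Rpl3l has one of 9 bases farther from its start. Among the 19 are genes that moved widely, such as Rps15 and Rpl35a, so the printed examples do not stand for all such genes. A run of at least 8 C or T within 50 bases of a start was found in 39 of the 45 genes (86.7%), against 39.3% of all genes with a window. The strict form, a C at the annotated first base followed by at least 4 C or T, was found in 9 (20%), against 3.01%, and an annotated start a few bases off would miss it. CCGGAA, the core bound by ETS factors, lay on either strand in 22 genes (48.9%), against 16.7%, and AANATGGC, a form of the YY1 motif, in 10 (22.2%), against 6.96%. TTCNNNGAA, the motif of STAT factors, lay in 3 (6.67%, against 9.55%). TTTC, any pair of bases and TTTC again, the core of the interferon-response motif, lay in 6 (13.3%, against 3.99%), and this motif is itself rich in T and C and can overlap the runs. These counts describe letters in a window, and binding was not measured.

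The 53 genes gave bright probes. Mean levels, in log2 units of normalized intensity, ran from 5.57 to 15.04 with a median of 12.98, and 26 genes had a mean of at least 13. Brightness depends on the probe as well as on the message, so levels of different genes are not compared with each other. The genes lay on 16 chromosomes, with at most 9 on any 1 of them and 4 on the X chromosome (Rpl10, Rpl36a, Rpl39 and Rps4x). Rplp1, an acidic protein of the stalk that recruits translation factors, ranked 3 among the probes of the array on W2, W5, W6 and W7 and 31 on W1. Normalization gives equal ranks equal levels, so these 4 arrays share the level of 15.19 and differences above it cannot be seen.

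The main feature of these genes was that they moved together from array to array within each group. Against the mean of the saline arrays, the median of the 53 genes lay at -0.54 log2 units on STZ W1, 0.42 on W2 and 0.16 on W3. On the saline arrays W4 and W5 it lay at -0.15 and 0.15, and on the leptin arrays W6, W7 and W8 at 0.39, 0.47 and -0.0066. Array W1 was thus the lowest of the 8, and inside the other groups W4 lay below W5 and W8 below W6 and W7. The group means of these medians were 0 ± 0.21 in saline (SD, n = 2), 0.014 ± 0.50 in STZ (SD, n = 3) and 0.28 ± 0.25 with leptin (SD, n = 3). The range of 0.96 among the 3 STZ arrays exceeded every difference between group means.

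W1 was the lowest of the 8 arrays for 48 of the 53 genes, against 16.6% of all kept probes, and W7 was the highest for 25 of them, against 13.8%. The median of all kept probes lay between -0.13 (W2) and 0.006 (W4). That of 291 other kept probes of a mean level of at least 12.98 was 0.053 on W1, -0.13 on W2 and -0.087 on W7. Normalization gives every array the same distribution and so holds such medians near 0. They show that the 53 genes moved relative to other probes, and cannot show whether a shift was array-wide. The intensities before normalization held the same order at its ends, with a median over the 53 genes of 5169 on W1 and 11002 on W7.

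**Figure D1:**
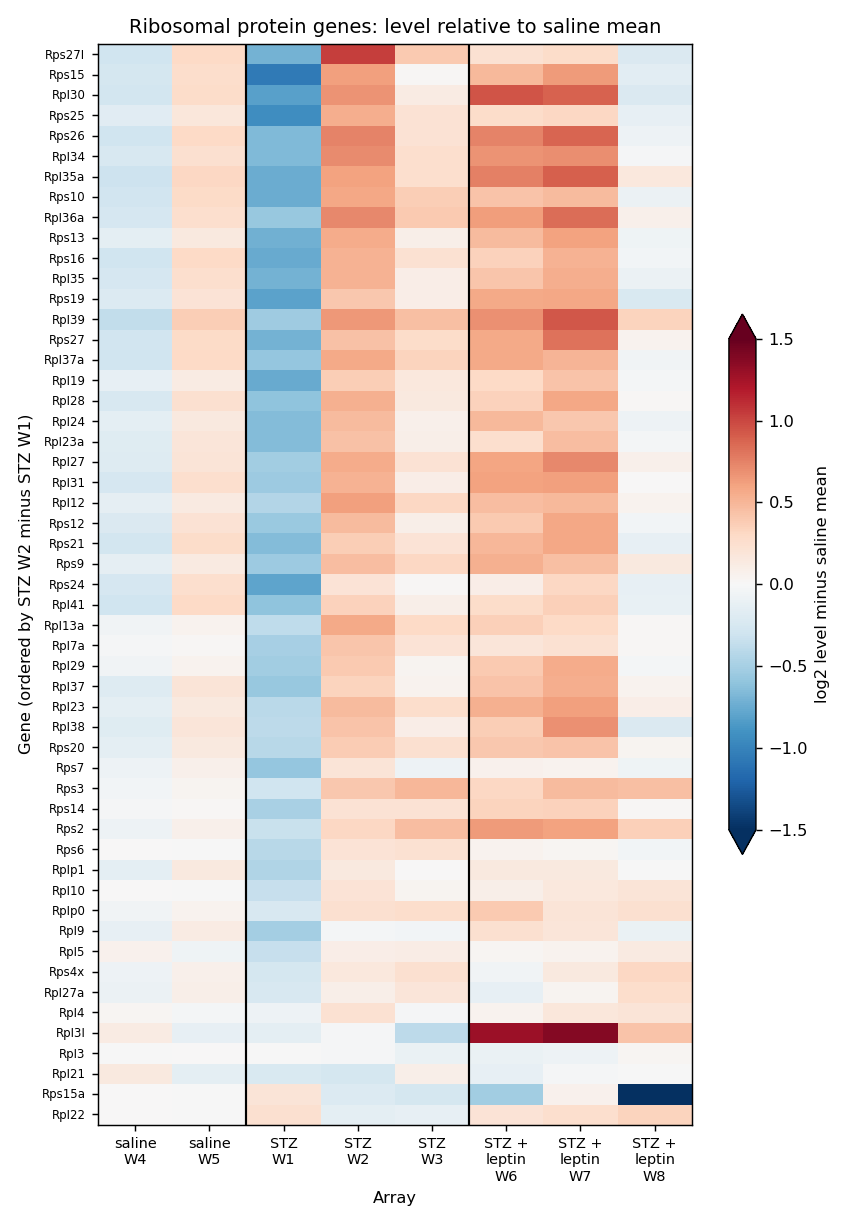
Heat map of the 53 ribosomal protein genes (rows, ordered by the difference between STZ W2 and STZ W1) on the 8 arrays (columns, in their groups), with colour giving the log2 level minus the mean of the saline arrays; colours stop at the ends of the scale. W1 is blue in nearly every row, W2, W6 and W7 are red in most, and Rpl22, Rps15a and Rpl3l at the foot do not follow.

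Pairs of arrays within a group, picked after their values were seen, show the size of this movement. STZ W2 lay above W1 in 49 of 53 genes, by a median of 1.00 log2 units (2-fold, quartiles 0.61 and 1.18), while 42.4% of all probes were higher. Saline W5 lay above W4 in 45 genes, by a median of 0.30 (1.23-fold), and leptin W7 above W8 in 44, by 0.49 (1.4-fold), with 48% and 48.9% of all probes higher. In 41 genes (77.4%) all 3 pairs went this way, against 15.9% of all kept probes. The other 12 were Rpl10, Rpl21, Rpl22, Rpl27a, Rpl3, Rpl3l, Rpl4, Rpl5, Rplp0, Rps15a, Rps4x and Rps6. These are differences between single arrays and carry no test. The SD over the 8 arrays had a median of 0.363 log2 units in the 53 genes and 0.241 in all kept probes.

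Genes with wide movement belonged to both subunits. Rps27, a zinc-finger protein of the small subunit, had levels of 12.94 and 13.52 in saline, 12.53, 13.68 and 13.51 in STZ (W1, W2, W3) and 13.80, 14.04 and 13.28 with leptin (W6, W7, W8). Rpl35a, of the large subunit, had 12.10 and 12.73 in saline, 11.66, 13.01 and 12.66 in STZ, and 13.17, 13.31 and 12.57 with leptin. Both followed the common order, with W1 lowest and W7 highest, and their groups overlapped. Rps27l, the paralogue of Rps27 and a p53 target, had the widest step inside the STZ group, from 10.52 on W1 to 12.27 on W2 (3.38-fold) with 11.62 on W3. It had 10.93 and 11.53 in saline and 11.46, 11.51 and 11.01 with leptin, so that STZ W1 and W2 enclosed all the other arrays. Rps15, whose product sits near the decoding site, went from 11.16 on W1 to 12.83 on W2 (3.19-fold), and Rpl30, a large-subunit protein, from 9.05 to 10.54 (2.80-fold).

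Other genes stood nearly still. Rpl3, a core protein close to the peptidyl transferase centre, had the smallest SD over the arrays (0.048), with 14.72 and 14.73 in saline, 14.72, 14.71 and 14.63 in STZ and 14.63, 14.66 and 14.75 with leptin. Rpl4 (SD 0.12), Rpl21 (0.15), Rpl5 (0.16) and Rpl27a (0.17) came next. Rpl22 went the other way on W1: it had 10.55 and 10.54 in saline, 10.79, 10.39 and 10.43 in STZ and 10.75, 10.80 and 10.88 with leptin. Without W1 its leptin arrays lay 0.40 ± 0.11 log2 units above STZ (SE, adjusted p = 0.0802 in limma), and with W1 0.27 ± 0.14 (adjusted p = 0.336), neither of which passed. Its paralogue Rpl22l1, which Rpl22 is known to hold down in mice, had 6.59 and 7.50 in saline, 6.20, 7.15 and 6.85 in STZ and 7.28, 8.17 and 7.23 with leptin, with W1 lowest and W7 highest as in the common order.

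Rps15a, a small-subunit protein, stood apart on 1 array. Its level was 8.58 on leptin W8, against 10.21 on W6, 10.79 on W7, 10.74 and 10.72 in saline and 10.92, 10.53 and 10.46 in STZ, and its raw intensity was 476.1 on W8 and 1157.6 to 2067 elsewhere. The probe was detected on all 8 arrays, and on W8 the median of the 53 genes was near saline. The SD of Rps15a over the arrays, 0.76, was the largest of the 53, and its difference between leptin and STZ of -0.78 ± 0.47 (SE, adjusted p = 0.413 in limma) was -0.14 without W8 (adjusted p = 0.791).

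**Figure D2:**
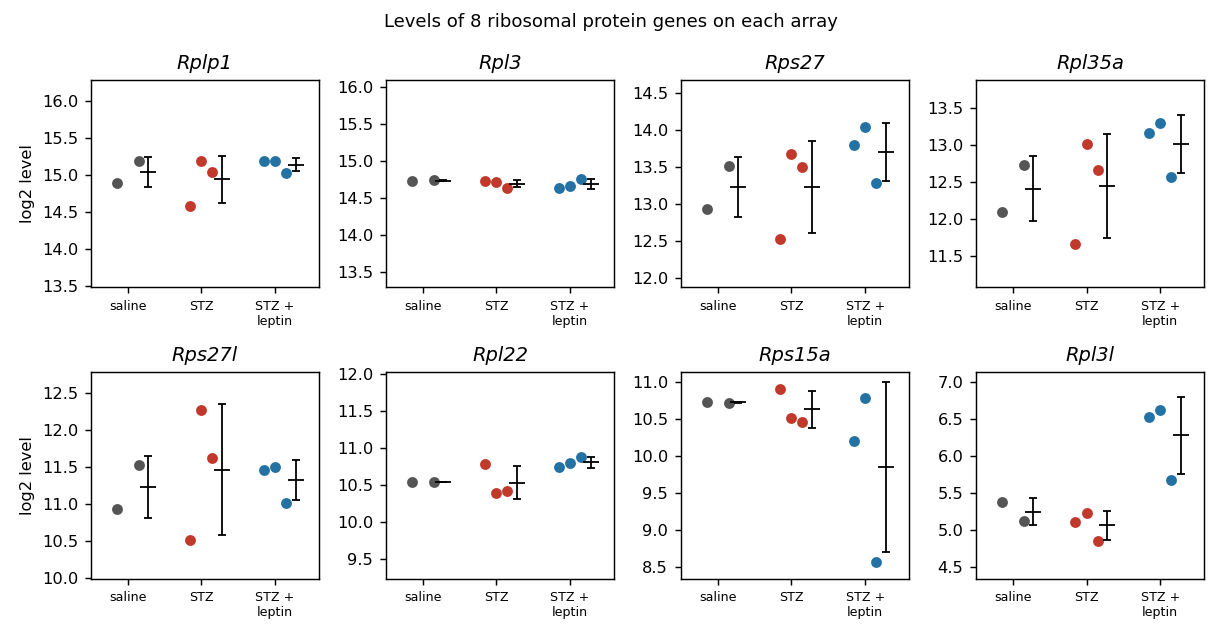
Log2 levels of 8 ribosomal protein genes, 1 panel each with the same span of axis, as 1 point per array (saline W4 and W5, STZ W1 to W3, STZ with leptin W6 to W8, from left to right), with the group mean and SD as bar and whiskers. Rps27, Rpl35a and Rps27l spread widely inside groups with the first STZ point lowest, Rpl3 is flat, Rps15a has 1 low leptin point and Rpl3l is higher on the leptin arrays.

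The effect of diabetes is addressed by STZ against saline (n = 3 and 2). In the limma fit over all 8 arrays, with Benjamini-Hochberg adjustment over 15494 probes, 0 of 53 genes passed, 0 had an unadjusted p under 0.05, and the lowest adjusted p was 0.726. Of all probes 4.29% passed (664) and 14.4% had an unadjusted p under 0.05. The median difference of the 53 genes was 0.0035 log2 units against -0.095 for all probes, with 27 genes higher and 26 lower, and the median standard error was 0.30. In 0 genes did all STZ arrays lie above all saline arrays, which held for 12.0% of all probes.

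Single arrays set that median. It was -0.19 with 4 of 53 genes higher without W2, -0.066 with 13 higher without W3, -0.14 with 10 higher without W4 and 0.15 with 43 higher without W5. Without W1 the 53 genes lay a median of 0.29 log2 units above saline (1.22-fold), with 47 of 53 higher, against -0.11 for all probes. Still 0 passed in limma (4 with an unadjusted p under 0.05), where 6.73% of all probes passed and 21.6% had an unadjusted p under 0.05. The lowest adjusted p, 0.0915, was that of Rps3, a small-subunit protein also known as a partner of NF-kB p65. Its levels were 12.65 and 12.73 in saline and 12.39, 13.10 and 13.19 in STZ, so that W2 and W3 lay above both saline arrays and W1 below them. Its difference was 0.20 ± 0.23 (SE) with W1 and 0.46 ± 0.13 without it. Rps27l had the highest difference without W1, 0.72 ± 0.29 (adjusted p = 0.212), and 0.24 ± 0.44 with it.

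The effect of leptin in diabetes is addressed by STZ with leptin against STZ (n = 3 and 3). Of the 53 genes, 1 rose and 0 fell, where 5.62% of all probes passed. That 1 was Rpl3l, and it also was the only one with an unadjusted p under 0.05 (19.4% of all probes) and the only one whose leptin arrays all lay above the STZ arrays (12.0% of all probes). The median difference of the 53 was 0.28 log2 units (1.21-fold) against 0.026 for all probes, and 50 of 53 were higher with leptin, against 54.2% of all probes. The median was 0.28 in the genes of the large subunit and 0.28 in those of the small. Without W1 the median was 0.006, with 27 of 53 higher, while all probes had 0.055. It was 0.47 without W2, 0.36 without W3, 0.18 without W7 and 0.42 without W8. Without W1 the gene that passed was again Rpl3l alone (8.05% of all probes passed). In that fit 2 of 53 genes had an unadjusted p under 0.05 (22.9% of all probes). Without W2, W3, W6 or W7, 0 of the 53 genes passed, where 3.19% to 3.71% of all probes did.

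Single genes show the same dependence on W1. Rpl35a, with the highest difference after Rpl3l, stood at 0.57 ± 0.35 (SE, adjusted p = 0.424 in limma) and at 0.18 ± 0.27 without W1. Rpl39, a short protein of the exit tunnel, stood at 0.46 ± 0.33 and at 0.10 ± 0.25 without W1. Rps2, a protein near the entry of the message channel, had 13.06 and 13.21 in saline, 12.81, 13.44 and 13.60 in STZ and 13.78, 13.74 and 13.49 with leptin. It stood at 0.39 ± 0.21 (adjusted p = 0.35) and at 0.15 ± 0.14 without W1. None of these passed with or without W1.

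STZ with leptin was also set against saline (n = 3 and 2), a comparison that does not use W1 in its means but does in its estimate of the spread. Of the 53 genes 0 passed in limma (2.03% of all probes), and 2 had an unadjusted p under 0.05, Rpl3l and Rps2 (11.9% of all probes). The median difference was 0.28 log2 units (1.21-fold) against -0.039 for all probes, with 50 of 53 higher, and it was 0.28 also without W1. It was 0.13 (41 of 53 higher) without W4, 0.18 without W7, 0.47 without W5 and 0.45 without W8. In 10 genes (18.9%) all 3 leptin arrays lay above both saline arrays, against 13.9% of all probes, a share near the background. These were Rpl10, Rpl22, Rpl3l, Rpl4, Rpl7a, Rplp0, Rps14, Rps2, Rps3 and Rps9. Rps2 had the highest difference of the 9 other than Rpl3l, 0.54 ± 0.23 (SE, adjusted p = 0.407). Without W1, 0 passed in limma (2.78% of all probes) and 5 had an unadjusted p under 0.05 (15.2% of all probes). Each pair of the 3 comparisons shares the arrays of 1 group, so their medians are not independent of each other.

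**Figure D3:**
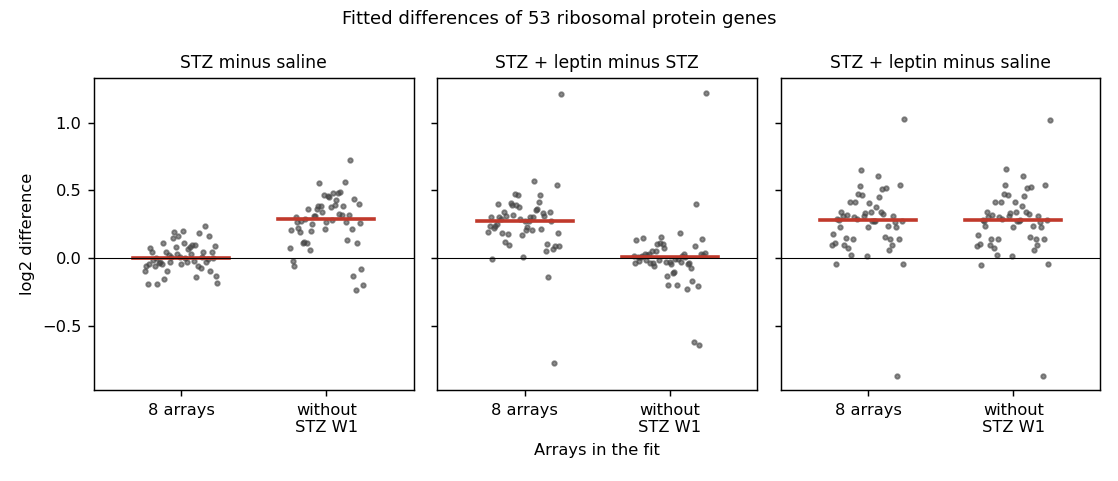
Fitted log2 differences of the 53 ribosomal protein genes (1 point per gene, red bar at the median) in the 3 comparisons, from all 8 arrays and without STZ W1. Leaving out W1 moves the median from 0.0035 to 0.29 for STZ minus saline and from 0.28 to 0.006 for STZ with leptin minus STZ, and leaves it at 0.28 for STZ with leptin minus saline.

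Rpl3l, the paralogue that takes the place of Rpl3 in heart and skeletal muscle, was the dimmest of the 53. Its levels were 5.38 and 5.13 in saline, 5.11, 5.24 and 4.86 in STZ and 6.53, 6.63 and 5.69 with leptin, so that the 3 leptin arrays lay above the other 5. With leptin it lay 1.22 ± 0.25 log2 units above STZ (SE, adjusted p = 0.0228 in limma) and 1.03 ± 0.27 above saline (adjusted p = 0.131). The size is not that of a measured fold, because the probe was not detected on W1, W3 and W5 (detection p 0.0514, 0.127 and 0.0589). Raw intensities were 98.1 to 116 on the STZ and saline arrays and 157.8, 167.3 and 129.9 with leptin, near the median of all probes of an array. The probe was detected on the 3 leptin arrays, on W2 and on W4, and the leptin arrays alone would have let it pass the filter. Its adjusted p in leptin against STZ was 0.0425 without W1, but 0.0505 without W2, 0.0974 without W3, 0.0807 without W6 and 0.0772 without W7. Without background correction its difference was 0.47 (adjusted p = 0.0506), so the size depends on that correction.

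Genes with roles outside the ribosome or a place in disease had values within the spread. Rplp0, the base of the stalk, had 8.19 and 8.31 in saline, 8.01, 8.50 and 8.51 in STZ and 8.64, 8.44 and 8.49 with leptin, and stood 0.27 ± 0.18 above saline with leptin (SE, adjusted p = 0.652 in limma). Rplp1 had 14.89 and 15.19 in saline, 14.59, 15.19 and 15.05 in STZ and 15.19, 15.19 and 15.03 with leptin. Rps6, the substrate of S6 kinase by which mTOR activity is often read, had 13.10 and 13.09 in saline, 12.68, 13.30 and 13.32 in STZ and 13.15, 13.13 and 13.05 with leptin, a message level that says nothing of phosphorylation. W1 was the lowest array for each of these 3 genes. The groups of Rplp1 and Rps6 overlapped, while the leptin arrays of Rplp0 lay above both saline arrays and overlapped STZ.

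Rpl5 and Rpl23 bind Mdm2 and thereby reach p53. Rpl5 differed by -0.041 ± 0.17 log2 units between STZ and saline and by 0.12 ± 0.15 between leptin and STZ (SE), and Rpl23 by 0.11 ± 0.27 and 0.31 ± 0.24. Rps19 and Rps26, mutated in human Diamond-Blackfan anaemia, were among the genes that moved most, with 2.31-fold and 2.66-fold between W1 and W2. Rpl13a, which in human monocytes leaves the ribosome in response to interferon-gamma, differed by 0.16 ± 0.26 between STZ and saline and by 0.066 ± 0.23 between leptin and STZ. Of the X-linked genes, Rpl39 and Rpl36a moved widely (2.27-fold and 2.45-fold from W1 to W2) and Rps4x and Rpl10 less (1.34-fold and 1.47-fold).

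Other genes with bright probes were also lowest on W1. Rpl41, a very short basic peptide of the large subunit, had 14.39 and 14.98 in saline, 14.08, 15.03 and 14.77 in STZ and 14.96, 15.05 and 14.57 with leptin. Rpl9, a large-subunit protein near the base of the stalk, had 14.63 and 14.87 in saline, 14.24, 14.72 and 14.71 in STZ and 14.99, 14.93 and 14.66 with leptin. Both had overlapping groups. Rpl41 was highest on W7, and Rpl9 on W6, with its W2 and W3 below saline W5. Rps20, a small-subunit protein, went 1.74-fold from W1 to W2, and Rps24 and Rps7, small-subunit proteins that are also mutated in human Diamond-Blackfan anaemia, 2.00-fold and 1.71-fold.

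At the lower end of STZ against saline stood Rpl9 (-0.19 ± 0.19, SE, adjusted p = 0.726 in limma), Rps24 (-0.19 ± 0.30) and Rps7 (-0.16 ± 0.21). Without W1 these were -0.024 ± 0.16, 0.11 ± 0.21 and 0.056 ± 0.15. At the upper end of leptin against saline, after Rpl3l, stood Rpl39 (0.65 ± 0.36, adjusted p = 0.566), Rpl35a (0.60 ± 0.39) and Rpl30 (0.54 ± 0.46). The levels of Rpl39 were 12.70 and 13.44 in saline, 12.54, 13.72 and 13.53 in STZ and 13.76, 14.01 and 13.41 with leptin. Its leptin array W8 lay below saline W5, so that the groups overlapped by that array alone.

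Several genes had more than 1 kept probe, 11 in all, and their probes moved alike between arrays in some genes and not in others. In Rps9 the second probe went up by 1.47 log2 units from W1 to W2 and the chosen one by 1.01. In Rps24 the probes did so by 1.16 and 1.00, in Rpl38 by 1.29 and 0.82, in Rps3 by 0.83 and 0.71 and in Rpl31 by 0.88 and 1.06. The probes of Rpl21 agreed in not going up (-0.23 and -0.029). In 4 genes a dim second probe (mean 5.08 to 5.54) did not go up with the chosen one: -0.24 against 1.21 in Rps19, -0.79 against 0.32 in Rpl27a, 0.066 against 0.92 in Rpl29, and -0.063 and 0.023 against 0.90 in Rpl37. Rpl23 had bright probes that disagreed: the chosen one, at a mean of 13.81, went up by 0.88 and the other, at 13.63, by 0.15. A dim probe of Rpl29 (mean 5.37, detected on 6 arrays) passed in leptin against STZ with 0.51 log2 units (adjusted p = 0.0413 in limma), while the chosen probe, at 10.72, had 0.34 (adjusted p = 0.5). Ribosomal protein genes have many processed pseudogenes with near-identical sequence, and which copies a probe reads was not tested.

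Related gene lists were set beside these on each array. The 5 measured ribosomal protein genes outside the symbol rule (among them Fau, whose product carries a small-subunit protein) had a median of -0.52 on W1, 0.13 on W2 and 0.38 on W7. Fau itself had 12.33 and 12.81 in saline, 11.90, 13.33 and 12.82 in STZ and 13.09, 13.27 and 12.56 with leptin. Rpl36al and Rpl22l1 were lowest on W1 as Fau was. The others did not follow: Rpl7l1 was highest on W1 (9.74), and Rpsa, a dim probe detected on 7 arrays, was lowest on W7 (5.22). The 69 nuclear subunits of the respiratory chain had medians of -0.71, 0.13 and -0.032 on W1, W2 and W3, -0.17 and 0.17 on W4 and W5, and 0.27, 0.37 and -0.11 on W6, W7 and W8. W1 was their lowest array and W7 their highest, as in the cytosolic ribosomal genes. The 71 mitochondrial ribosomal proteins had -0.53 on W1, between -0.066 and 0.018 on W2 to W5 and W8, and 0.13 and 0.19 on W6 and W7.

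Lists of the machinery that works with the ribosome had medians that moved less on W1, though single genes in them moved both ways. From W1 to W2, Eif3c went from 9.82 to 8.61 and Nop10 from 10.23 to 11.35. Elongation factors had their lowest median, -0.24, on W7. Median values on W1 were -0.17 for 9 elongation factors, 0.22 for 26 initiation factors, -0.14 for 33 ribosome biogenesis genes and 0.037 for 13 genes of mTOR and S6 kinase. In each of the 3 comparisons, 0 of these genes and of the 5 other ribosomal protein genes, 86 in all, passed in limma. An unadjusted p under 0.05 was held by 5, 11 and 4 in STZ against saline, leptin against STZ and leptin against saline. Of all probes, 4.29%, 5.62% and 2.03% passed in these comparisons, and 14.4%, 19.4% and 11.9% had an unadjusted p under 0.05. Of 13 genes of the integrated stress response, Eif2ak2, the interferon-induced kinase PKR that blocks initiation, rose by 1.27 ± 0.21 log2 units in STZ (SE, adjusted p = 0.00981), and 0 of the 13 passed with leptin against STZ or saline (5 and 3 with an unadjusted p under 0.05). Npm1 and Fbl, nucleolar proteins of ribosome assembly, differed by 0.14 ± 0.15 and 0.11 ± 0.17 between STZ and saline.

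In leptin against STZ, the median of the 69 respiratory chain genes was 0.38, or 0.11 without W1. A pair of them passed, both higher, where 5.62% of all probes passed. They were Cox6a2, a muscle form of a cytochrome oxidase subunit (2.92 ± 0.29, adjusted p = 0.000698), and Atp5g2, a subunit of ATP synthase (1.42 ± 0.26, adjusted p = 0.0148). Cox6a2 had 7.30 and 7.69 in saline, 7.30, 8.21 and 8.02 in STZ and 11.07, 10.98 and 10.22 with leptin. Like Rpl3l it was higher on all 3 leptin arrays and lowest among them on W8, and both are named because they passed. Among other cytochrome oxidase subunits of the list, Cox7a1 differed by 0.70 ± 0.37 (SE, adjusted p = 0.347 in limma). Cox8b differed by -1.77 ± 0.91 (adjusted p = 0.33), lower with leptin. Of 71 mitochondrial ribosomal proteins 1 rose, Mrpl55 (1.22 ± 0.28, adjusted p = 0.0417), and 1 fell, Mrps10, which fell by 0.64 (adjusted p = 0.0359), with a list median of 0.24 that was 0.12 without W1. Against saline, where 2.03% of all probes passed in limma, Mrpl45 fell by 1.04 with leptin (adjusted p = 0.0212) and Cox6a2 rose by 3.26 (adjusted p = 0.000994). In STZ against saline 0 genes of either list passed in limma (4.29% of all probes). At an unadjusted p under 0.05 were 0 respiratory chain and 3 mitochondrial ribosomal genes (14.4% of all probes).

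**Figure D4:**
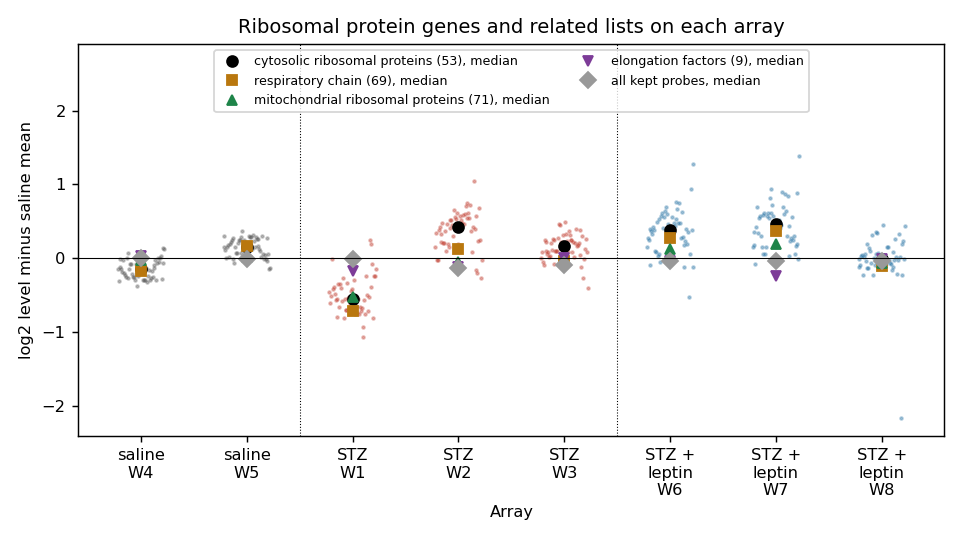
Log2 level minus the saline mean on each of the 8 arrays, with small points for the 53 ribosomal protein genes and large symbols for the medians of the named lists and of all kept probes. The cytosolic ribosomal, mitochondrial ribosomal and respiratory chain medians are lowest on W1 (-0.54, -0.53 and -0.71). The median of all probes stays near 0 there, where normalization holds it.

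Markers of other cell types and of neighbouring tissue differed between the same arrays. Median raw intensity per array was 117.2 to 127.5 and 13608 to 14776 of 25697 probes were detected (53 to 57.5%), with W1 the highest in raw median and within the range in detection. The 5 of 6 choroid plexus markers that were measured had a median of -2.16 on W1 and of -2.63 to -2.12 on the leptin arrays, against 0.71 and 0.33 on W2 and W3 and -0.52 and 0.52 in saline. Their summed signal was 14720 to 30544 in saline, 1461 to 31612 in STZ and 1690 to 4872 with leptin. W1 was low in these markers, as the leptin arrays were. The median of the ribosomal protein genes was -0.54 on W1 and 0.39, 0.47 and -0.0066 on W6, W7 and W8. The 5 pituitary markers were high on W2 alone (median 5.75, between -1.32 and 0.046 elsewhere), with sums of 691 to 1252 in saline, 292 to 79438 in STZ and 417 to 630 with leptin.

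Blood markers (4 of 5 measured) had medians of 4.37 on W2 and 1.98 on W3 and at most 0.65 elsewhere, with sums of 9919 to 15156 in saline, 6398 to 41133 in STZ and 11770 to 18308 with leptin. On W3 the median came from S100a8 (9.66, against 4.65 and 4.53 in saline) and S100a9 (8.27, against 4.41 and 4.58). Hba-a1 (13.55) and Alas2 (7.12) lay between the saline arrays on W3. The sum of 6 of 7 microglial markers was 2160 to 2473 in saline, 10035 to 15360 in STZ and 8323 to 9976 with leptin, and 4 of the 6 rose in STZ (C1qc by 2.97 ± 0.18, adjusted p = 4.5e-05 in limma). The sum of 5 of 7 neuron markers was 22504 to 22934 in saline, 16886 to 22417 in STZ and 19666 to 21704 with leptin, with medians of -0.34, -0.38 and -0.29 on the STZ arrays. Astrocyte sums were 15749 to 16066, 18209 to 20395 and 17366 to 18691, oligodendrocyte sums 50654 to 54040, 48444 to 51554 and 49178 to 51650, and endothelial sums 448 to 510, 435 to 454 and 375 to 408, in the same order of groups. Snap25, Nefl, Csf1r, Cldn5, Kcnj13 and Hbb-b1 had no kept probe. The part of any of these tissues in the ribosomal protein values was not tested.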

How the data were processed

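Per the file headers, the deposited raw table pairs each array's linear intensity of a probe with its detection p-value, and the values are not normalized. The authors' processed table, used as an alternative, holds log2 values. Its columns share a median of 6.90 and rank probes as their own raw column does (Spearman 1.000; at most 0.957 with another sample), and its scale beyond that and its software are not given in the sources used here. Intensities went through neqc (limma 3.58.1, R 4.3.3; offset 16, negative controls inferred from the detection p-values, quantile normalization, log2). Of 25697 probes, 15494 had a detection p under 0.05 on at least 2 arrays. The probe table names 1 gene for 23978 probes and none for 1719.

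A model with 3 group means was fitted to 8 arrays in limma (lmFit, eBayes), with 5 residual degrees of freedom and 3.93 from the prior. P-values were adjusted with Benjamini-Hochberg over all kept probes, at a threshold of 0.05. The step was tested on simulated data with noise drawn independently for each probe and array. No movement shared by genes was simulated, so that test does not cover genes that move together. The number of arrays limits the precision. Members, lists, marker genes and tests were chosen with earlier results of these data known.

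Named members are those that passed, the 5 highest and 5 lowest differences of each comparison, the 5 brightest and 3 dimmest, the 3 with the largest and the 3 with the smallest SD, genes whose probes differ by over 1 log2 unit, and a set chosen by role. A few others appear as examples of movement between arrays, of a promoter, of several probes or of groups that do not overlap, and were chosen after their values were seen. List genes are named where they passed or as examples. Groups follow the titles. By their descriptions STZ W3 carries the number 1, as W1 does, and the saline arrays 2 and 3 with no 1, so the group of W3 rests on its title and source name. Deviations from the group means correlated by -0.22 to 0.092 in 6 pairs of the same description number and by -0.32 to 0.32 in 15 other pairs. In groups of 2 and 3 these deviations are tied to each other, so the values cannot show whether the numbers pair samples. Alternatives covered the input, background correction, normalization, array weights, detection filter, samples in the fit, the number as a block, the probe of a gene and leaving out each array.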

Additional observations from a re-analysis of the deposited data

How the results depend on the processing

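The number of genes that passed in STZ against saline was 0 under each of the 18 alternatives in limma (0 to 4 with an unadjusted p under 0.05). In leptin against STZ it was 1 (Rpl3l), and 0 without background correction and with detection p under 0.01 on all 8 arrays, where Rpl3l is not tested. It was also 0 in the fits without W2, W3, W6 or W7. In leptin against saline it was 0, and 1 (Rpl3l, 1.13, adjusted p = 0.0221 in limma) with array weights. Leaving out 1 array in turn gave counts of 0 to 0, 0 to 1 and 0 to 1. The 1 in leptin against saline came without W8 (Rpl3l, 1.33, adjusted p = 0.00979).

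Over the fits that leave out 1 array, the medians of the 53 genes ranged from -0.19 (without W2) to 0.29 (without W1) in STZ against saline, from 0.006 (without W1) to 0.47 (without W2) in leptin against STZ, and from 0.13 (without W4) to 0.47 (without W5) in leptin against saline. Under median centring, the median in STZ against saline was -0.20 with 3 of 53 higher, and all probes had -0.19, so its sign depends on the scaling. In leptin against STZ it was 0.43 under median centring and 0.15 with array weights, which gave W1 a weight of 0.279. A fit with the description number as a replicate block gave no other count: the medians were 0.11, 0.25 and 0.34 and the counts 0, 1 and 0. Of the named genes' values, 547 of 557, 539 of 557 and 554 of 557 kept their side of the threshold. These also kept their direction or moved by less than their standard error, and 0 that passed changed sign. Rpl3l alone passed in any fit, so the other named genes had no call to lose and these counts say little of them.

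Over all probes, 664, 870 and 314 passed in the 3 comparisons. Array weights gave 1659, 1859 and 714, detection p under 0.01 on all 8 arrays 332, 552 and 183, and the block 336, 474 and 211. Without 1 array the counts ran from 277 to 1032, 484 to 1234 and 111 to 426. With groups of 2 and 3 and a median standard error of 0.30, differences of the size of the medians cannot be seen in single genes.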
